A study of Homo sapiens with 4 samples.

Results

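Iron enters cells bound to transferrin, is stored inside ferritin and leaves through ferroportin, and 10 human genes of this route were followed here. They were chosen by name from a table of 58174 genes. TF, TFRC, STEAP3 and SLC11A2 serve uptake, FTH1, FTL and NCOA4 storage and its release, SLC40A1 export, and ACO1 and IREB2 the sensing of iron. All 10 were listed in the table, and all 10 passed the filter on low values, which asked for 1 FPKM or more in some library. FPKM divides the fragments of a gene by its length and by the mapped total. The gene lengths used are not stated in the sources, and the order of different genes and the ratios between them rest on those lengths.

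The samples were cultures of LM3, a hepatocellular carcinoma cell line, and RBE, a line from an intrahepatic cholangiocarcinoma, both grown in DMEM with fetal bovine serum. Each line received, by Lipofectamine 3000, either si-FENDRR, a small interfering RNA whose target is the long noncoding RNA FENDRR, or the negative control si-NC, and RNA was taken after 48 h. There was 1 messenger RNA library for each line and transfection, so 4 libraries in all. Separate cultures within a line are not named in the labels, so p-values rest on spread between libraries, which may be technical. With 1 residual degree of freedom, limma takes much of the spread of a gene from the other genes tested. The standard errors and p-values are therefore not the spread of that gene alone. An untransfected culture was not analysed here. Wherever a pair of values is given for a line, the si-FENDRR library comes first and the si-NC library second.

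The targeted RNA gave no check of the labels or of a knockdown, since FENDRR was listed at 0 in every library, those of si-NC included. Whether si-FENDRR lowered its target cannot be told from these values. The libraries are compared as labelled. From 13437 to 13682 genes per library reached 1 FPKM. LM3 carried the hepatocyte genes ALB (35.7 and 33.3 FPKM) and CEBPA (81.8 and 93.1 FPKM), and RBE the biliary keratin KRT7 (429 and 391 FPKM), but the match to the labelled types was partial. Of 11 hepatocyte markers, APOA1, APOB and HP were under 1 FPKM in every library and SERPINA1, AMBP and TTR were higher in RBE, and the summed level of the list overlapped between lines (154 and 159 FPKM in the LM3 pair, 131 and 167 FPKM in the RBE pair). Of 9 cholangiocyte markers, CFTR was under 1 FPKM throughout and SPP1 was higher in LM3 (1118 and 909 FPKM, against 515 and 504 FPKM for RBE), and the sums were 1402 and 1236 FPKM for LM3 and 1637 and 1562 FPKM for RBE. All 8 erythroid markers stayed under 1 FPKM, with HBB and SLC4A1 among those at 0 in every library. So did 5 of 7 macrophage and leukocyte markers, while the lysosomal gene CD68 had 60.1 and 62.2 FPKM in the LM3 pair and 14.2 and 13.9 FPKM in the RBE pair, and LYZ, the other exception, had 0.128 and 0 FPKM against 12.7 and 12.5 FPKM. The part of these markers in the results was not tested.

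As background, transferrin is a plasma protein made mainly by hepatocytes, and its receptor carries the iron-loaded protein into endosomes, where a STEAP reductase and the transporter of SLC11A2 pass the metal to the cytosol. Ferritin is a hollow shell built from the H and L subunits of FTH1 and FTL, and the liver is a main site of iron storage. The RNA-binding forms of ACO1 (IRP1) and IREB2 (IRP2) attach to hairpins called iron-responsive elements when iron is scarce. A hairpin in the 5′ UTR then blocks translation of ferritin and ferroportin messages, and hairpins in the 3′ UTR protect the TFRC message from decay. RNA levels can show the latter control but not the former.

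The hairpins are shown because they are where the sensors of this set meet its other members. They were searched on the sense strand of GENCODE release 29 transcripts as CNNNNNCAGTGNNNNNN, with all 5 bases before the loop pairing with the 5 bases after it (G-T pairs allowed). Each window has 29 bases, written 5′ to 3′ as DNA, with the 6-base loop in capitals, and positions are on GRCh38. The FTH1 site is in the 5′ UTR at chr11:61967574-61967602, minus strand. The FTL site is in the 5′ UTR at chr19:48965335-48965363, plus strand. The SLC40A1 site is in the 5′ UTR at chr2:189580661-189580689, minus strand. The 4 TFRC sites lie in the 3′ UTR on the minus strand, in transcript order at chr3:196050979-196051007, chr3:196050575-196050603, chr3:196050510-196050538 and chr3:196050463-196050491.
FTH1: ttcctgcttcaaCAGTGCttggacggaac
FTL: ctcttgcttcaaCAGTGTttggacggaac
SLC40A1: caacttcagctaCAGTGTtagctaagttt
TFRC site 1: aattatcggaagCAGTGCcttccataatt
TFRC site 2: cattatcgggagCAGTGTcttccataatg
TFRC site 3: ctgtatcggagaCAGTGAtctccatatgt
TFRC site 4: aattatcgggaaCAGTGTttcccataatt
Within the listed bounds of the 10 genes these 7 windows in 4 genes were the matches. Elements that depart from these letters or this pairing are missed, so other elements may be present. SLC11A2, which has isoforms with an iron-responsive element, gave no match. A further match, in a longer TF transcript of GENCODE, lay beyond the end of TF as the table lists it. The same letters and pairing were found in the 5′ UTR of 0.189% of protein-coding genes and in the 3′ UTR of 0.689%. A match is a description of sequence, and binding was not measured.

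Between the lines, 9 of the 10 genes differed by limma at an adjusted p of 0.05, against a background of 58.7% of the 15930 genes tested. FTL had the largest difference of the set, 10.5-fold higher in LM3, while FTH1, which encodes the partner subunit, was 1.52-fold higher. TF, TFRC, SLC11A2 and SLC40A1 were 2.67-fold to 4.12-fold higher in LM3. NCOA4, STEAP3 and IREB2 were 1.68-fold to 2.17-fold higher in RBE, and ACO1 was the member that did not pass. Folds between lines are on the FPKM + 1 scale from the fit over all 4 libraries. In bulk libraries, fewer cells carrying a message and less of it per cell cannot be told apart.

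Of the 10 genes, 6 were called higher in LM3, where 32.3% of all genes tested were, and 3 higher in RBE, where 26.4% were. A log2 difference of at least 1 in size was seen in 6 of the 10 and in 31.2% of all genes tested. The FPKM ranges of the lines did not overlap for 9 of the 10, and for 81.7% of all genes tested. The median log2 difference, LM3 minus RBE, was 1.01 for the 10 genes and 0.092 for all genes tested.

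**Figure D1:**
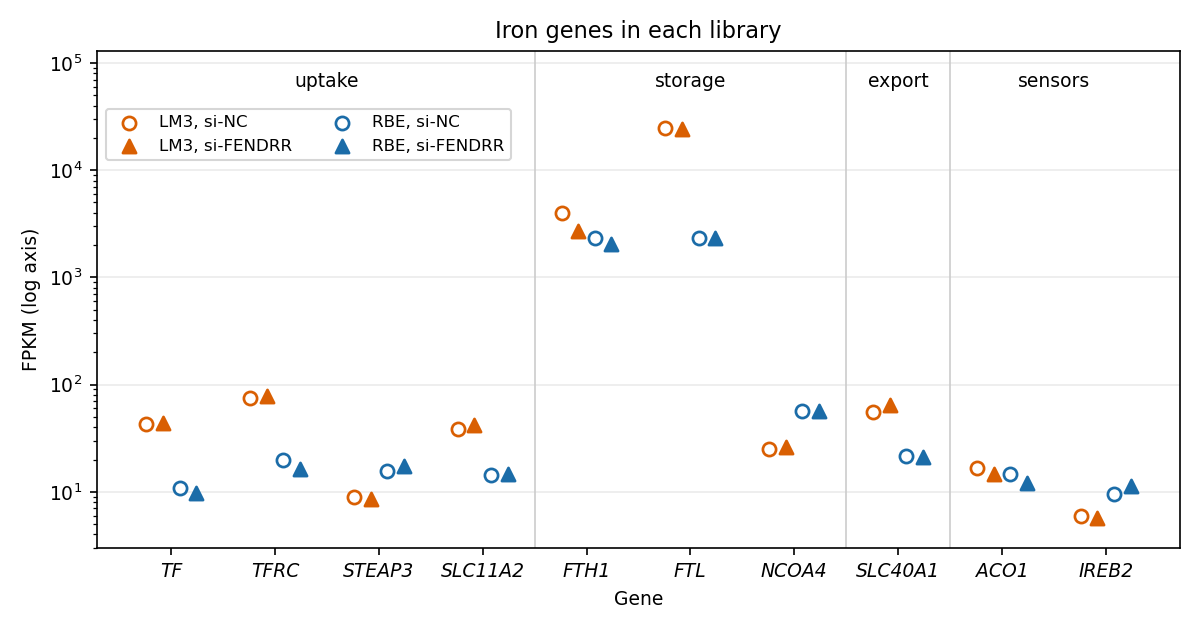
FPKM of the 10 iron genes on a log axis, grouped by role, with 1 point per library (orange, LM3; blue, RBE; open circles, si-NC; filled triangles, si-FENDRR). The 2 FTL points of LM3 lie at 24237 and 24535 FPKM, above all others, and the points of a line lie close together for most genes.

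TF encodes transferrin, the iron carrier of plasma. For TF (ENSG00000091513, chromosome 3, 133745956 to 133779006, plus strand) the LM3 libraries had 43.7 and 43.3 FPKM, and the RBE libraries 9.66 and 10.9 FPKM. Both LM3 values lay above both RBE values. The log2 difference, LM3 minus RBE, was 1.98 ± 0.12 (SE, n = 2 libraries per line, adjusted p = 0.00164 by limma). Exons of TF in GENCODE run beyond the end of TF as listed here. They share 112 bases with SRPRB (21.6 to 25.6 FPKM) and 191 with the pseudogene TFP1 (at most 0.112 FPKM) on the same strand. Whether these bases lie within TF as listed was not examined.

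TFRC encodes transferrin receptor 1, the main route of transferrin iron into dividing cells. For TFRC (ENSG00000072274, chromosome 3, 196027183 to 196082189, minus strand) the LM3 libraries had 78.2 and 74.8 FPKM, and the RBE libraries 16.1 and 19.6 FPKM. The LM3 libraries were the high ones under both transfections, and the ranges stood well apart. The log2 difference between lines was 2.04 ± 0.14 (SE, n = 2 libraries per line, adjusted p = 0.00189 by limma).

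SLC11A2 encodes DMT1, which carries ferrous iron across the endosomal membrane. For SLC11A2 (ENSG00000110911, chromosome 12, 50979401 to 51028566, minus strand) the LM3 libraries had 42.4 and 38.5 FPKM, and the RBE libraries 14.6 and 14.4 FPKM. The LM3 pair was again the high one, with no overlap of the lines (limma log2 difference 1.42 ± 0.11 SE, adjusted p = 0.00269). The gene has isoforms with and without an iron-responsive element, and gene-level FPKM does not separate them.

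STEAP3, the endosomal ferrireductase that prepares iron for DMT1, differed the other way. For STEAP3 (ENSG00000115107, chromosome 2, 119223831 to 119265652, plus strand) the LM3 libraries had 8.63 and 8.91 FPKM, and the RBE libraries 17.5 and 15.5 FPKM. The RBE libraries were the high ones, without overlap (limma log2 difference -0.84 ± 0.13 SE, adjusted p = 0.00958). The ratio of SLC11A2 to STEAP3 FPKM was 4.91 and 4.32 for LM3, and 0.835 and 0.933 for RBE. In FPKM, the transporter lay above the reductase in both LM3 libraries and somewhat below it in both RBE libraries. Which message was the larger rests on the gene lengths used, and the difference of the ratio between lines less so. STEAP3-AS1, on the opposite strand, shares 500 exon bases with STEAP3 and reached at most 0.508 FPKM. Whether the libraries kept strand information is not given in the sources.

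Storage held the highest values of the set. FTL encodes the ferritin light chain, which favours mineral growth in the core. For FTL (ENSG00000087086, chromosome 19, 48965301 to 48966878, plus strand) the LM3 libraries had 24237 and 24535 FPKM, and the RBE libraries 2344 and 2321 FPKM. FTL ranked 1 among all listed genes in both LM3 libraries, and ranked 23 and 24 in the RBE libraries. The log2 difference was 3.39 ± 0.086 (SE, n = 2 libraries per line, adjusted p = 0.000584 by limma), and 365 of the 15930 genes tested, FTL included, had one that large or larger in either direction. FTL alone made up 4.87% and 5.07% of the summed FPKM of the LM3 libraries, and 0.473% and 0.457% for RBE. With each library rescaled to the same sum of FPKM without FTL, a setting chosen after the data were seen, the log2 difference was 3.48.

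FTH1 encodes the ferritin heavy chain, which oxidises ferrous iron as it enters the shell. For FTH1 (ENSG00000167996, chromosome 11, 61959718 to 61967660, minus strand) the LM3 libraries had 2733 and 3976 FPKM, and the RBE libraries 2046 and 2308 FPKM. The lines did not overlap, but the LM3 libraries lay farther from each other than the lower of them lay from RBE. The log2 difference was 0.60 ± 0.13 (SE, n = 2 libraries per line, adjusted p = 0.0221 by limma). A fit that leaves out 1 library has no room for the transfection term and holds 1 line as a single library. It takes the gene's own spread from the other line. This call was lost in such limma fits without LM3 si-NC (log2 difference 0.33, adjusted p = 0.164), RBE si-FENDRR (0.51, adjusted p = 0.332) or RBE si-NC (0.69, adjusted p = 0.239), and it held without LM3 si-FENDRR (0.87, adjusted p = 0.0421). It was also lost with no filter on low values (adjusted p = 0.139) and without the transfection term (adjusted p = 0.0610).

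The balance of the ferritin subunit messages differed between the lines. The ratio of FTL to FTH1 FPKM was 8.87 and 6.17 for LM3, and 1.15 and 1.01 for RBE. In FPKM, L exceeded H several-fold in LM3, and the subunits were nearly level in RBE. Which message was the larger rests on the gene lengths used. Together FTH1 and FTL made up 5.41% and 5.89% of the summed FPKM of LM3 and 0.885% and 0.911% of that of RBE. Protein subunits were not measured.

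Both ferritin genes have processed pseudogenes, intronless copies that can share reads with the parent. The table lists 25 copies of FTH1 and 14 of FTL, of which 12 and 2 reached 1 FPKM in some library. The most abundant was FTH1P2, with 45.5 and 41.3 FPKM for LM3 and 20.1 and 19.4 FPKM for RBE. Weighted by GENCODE exon length, the FTH1 copies came to between 0.710% and 1.56% of FTH1, and the FTL copies to at most 0.0853% of FTL. In summed FPKM without that weight, the shares were 2.92% to 5.69% for FTH1 and at most 0.142% for FTL. With the copies added to their parents, the log2 differences between lines were 0.61 for FTH1 and 3.39 for FTL. The treatment of reads that fit several places is not stated in the sources. FTH1 also shares 1267 of its 2030 exon bases with BEST1 on the opposite strand, a gene of at most 2.84 FPKM.

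NCOA4 is the cargo receptor that delivers ferritin to lysosomes, where the iron is released. For NCOA4 (ENSG00000266412, chromosome 10, 46005088 to 46030714, minus strand) the LM3 libraries had 25.9 and 24.9 FPKM, and the RBE libraries 56.4 and 56.1 FPKM. RBE was the higher line, without overlap (limma log2 difference -1.12 ± 0.11 SE, n = 2 libraries per line, adjusted p = 0.00374). NCOA4 was lower in the line with more FTL, and the ratio of FTL to NCOA4 FPKM was 935 and 984 for LM3, and 41.6 and 41.4 for RBE.

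**Figure D2:**
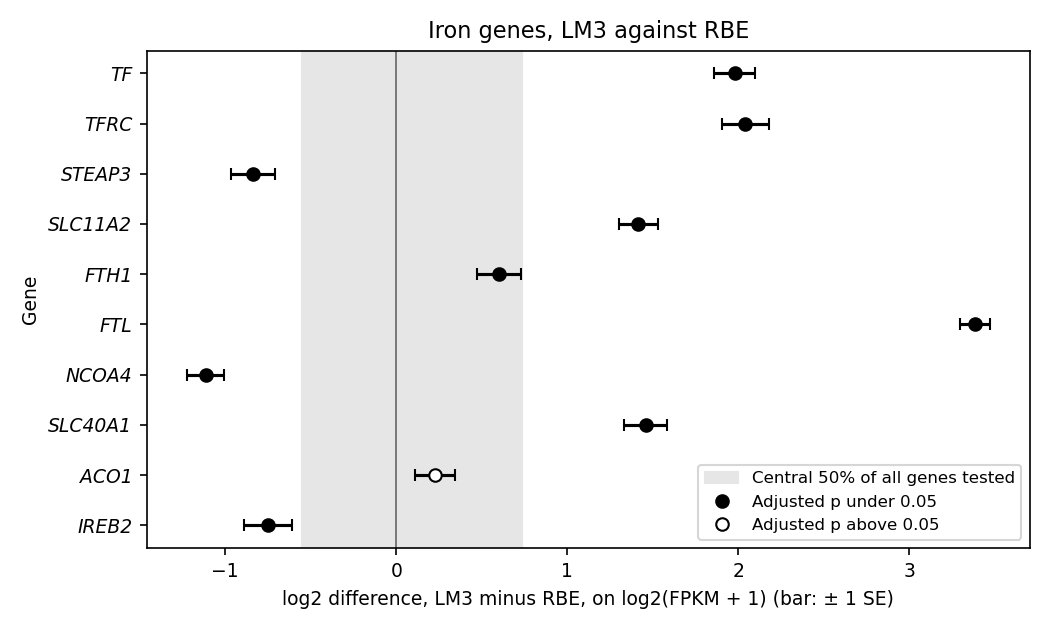
Log2 difference of the 10 iron genes between LM3 and RBE on log2(FPKM + 1), with bars of 1 standard error from limma. Filled points passed an adjusted p of 0.05, and the grey band holds the central 50% of all genes tested. FTL lies farthest right at 3.39, NCOA4 farthest left at -1.12, and ACO1 is the open point.

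SLC40A1 encodes ferroportin, the iron exporter of vertebrate cells. For SLC40A1 (ENSG00000138449, chromosome 2, 189560579 to 189583758, minus strand) the LM3 libraries had 64.9 and 55.5 FPKM, and the RBE libraries 20.9 and 21.5 FPKM. Like TFRC it was higher in both LM3 libraries (limma log2 difference 1.46 ± 0.13 SE, n = 2 libraries per line, adjusted p = 0.00299). The ratio of TFRC to SLC40A1 FPKM was 1.20 and 1.35 for LM3, and 0.772 and 0.914 for RBE. The receptor had the higher FPKM in LM3 and the exporter the higher FPKM in RBE. Which message was the larger rests on the gene lengths used.

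The sensors were among the genes of the set with lower FPKM. IREB2 encodes IRP2, which is degraded when iron is plentiful. For IREB2 (ENSG00000136381, chromosome 15, 78437431 to 78501456, plus strand) the LM3 libraries had 5.65 and 5.99 FPKM, and the RBE libraries 11.4 and 9.58 FPKM. RBE was the higher line, without overlap (limma log2 difference -0.75 ± 0.14 SE, n = 2 libraries per line, adjusted p = 0.0162). The call was lost in the same kind of limma fit, on line alone with 1 line as a single library, without LM3 si-FENDRR (log2 difference -0.71, adjusted p = 0.0715), LM3 si-NC (-0.78, adjusted p = 0.0617) or RBE si-FENDRR (-0.63, adjusted p = 0.0603).

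ACO1 encodes the cytosolic aconitase that becomes IRP1 once it loses its iron-sulphur cluster. For ACO1 (ENSG00000122729, chromosome 9, 32384603 to 32454769, plus strand) the LM3 libraries had 14.7 and 16.8 FPKM, and the RBE libraries 12.0 and 14.7 FPKM. The lines overlapped, and the log2 difference of 0.23 ± 0.12 (SE, n = 2 libraries per line, adjusted p = 0.166 by limma) did not pass. The ratio of ACO1 to IREB2 FPKM was 2.59 and 2.81 for LM3, and 1.05 and 1.53 for RBE. ACO1 had the higher FPKM of the pair in every library.

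In both LM3 libraries the FPKM values fell in the order FTL, FTH1, TFRC, SLC40A1, TF, SLC11A2, NCOA4, ACO1, STEAP3 and IREB2. TF and SLC11A2 were close neighbours, and their means over the LM3 libraries were separated by less than the spread of SLC11A2 between those libraries. In RBE the ferritin genes were followed by NCOA4 and then SLC40A1, and the other 6 genes lay close together. The ranges of TFRC and STEAP3 overlapped there, as did those of SLC11A2 and ACO1 and those of IREB2 and TF, and FTL and FTH1 were nearly level.

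Other genes of iron handling were read from lists of related steps. Of 15 genes of iron uptake and reduction, 10 passed the filter, with 4 called higher in LM3 and 1 higher in RBE (32.3% and 26.4% of all genes tested). For STEAP1, a relative of STEAP3, LM3 gave 74.1 and 67.2 FPKM and RBE gave 1.80 and 1.92 FPKM (limma log2 difference 4.64 ± 0.13 SE, adjusted p = 0.000612). For the endocytic receptor LRP1, LM3 gave 24.2 and 28.8 FPKM and RBE 5.60 and 5.32 FPKM. The lysosomal channel MCOLN1 was also higher in LM3, with 16.0 and 16.7 FPKM there and 9.20 and 10.7 FPKM for RBE. CYBRD1, a ferrireductase of the cell surface, was listed at 0 in both LM3 libraries and had 8.33 and 7.59 FPKM in the RBE libraries (adjusted p = 0.00103 by limma). TFR2, the other transferrin receptor of hepatocytes, named after its values were seen, reached at most 0.0245 FPKM.

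Around export and its hormone hepcidin, 7 of 12 genes passed the filter. Of these, 4 were called higher in LM3 and 1 higher in RBE (32.3% and 26.4% of all genes tested). For CP, the ferroxidase ceruloplasmin that works with ferroportin, LM3 gave 120.4 and 120.1 FPKM and RBE gave 0.473 and 0.426 FPKM (limma log2 difference 6.39 ± 0.12 SE, adjusted p = 0.000584). HAMP encodes hepcidin, the liver hormone that removes ferroportin from the membrane. It had 13.9 and 14.6 FPKM in the LM3 libraries and was listed at 0 in both RBE libraries (adjusted p = 0.000742 by limma). For ERFE, an inhibitor of hepcidin induction, LM3 gave 1.25 and 1.26 FPKM and RBE 0.140 and 0.532 FPKM. BMP6, an inducer of hepcidin, was the gene higher in RBE, with 9.13 and 8.56 FPKM there and 3.12 and 3.48 FPKM for LM3. Its relative BMP2, named after its values were seen, was higher in LM3, with 15.4 and 17.2 FPKM there and 0.758 and 0.666 FPKM for RBE.

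Of 8 genes of iron sensing and chaperoning, 5 were called higher in RBE and 1 in LM3 (26.4% and 32.3% of all genes tested). For SKP1, a general ubiquitin ligase subunit, LM3 gave 61.9 and 53.7 FPKM and RBE 166 and 213 FPKM. GLRX3, a glutaredoxin, had 29.8 and 30.3 FPKM for LM3 and 58.3 and 79.6 FPKM for RBE. FBXL5 is the iron-binding F-box protein that targets IRP2 for degradation, and was named after its values were seen. It had 13.2 and 14.0 FPKM for LM3 and 26.7 and 28.0 FPKM for RBE (limma log2 difference -0.96 ± 0.11 SE, adjusted p = 0.00539), so IREB2 and FBXL5 were both higher in RBE. HERC2, a large ubiquitin ligase, had 8.98 and 8.79 FPKM for LM3 and 12.6 and 11.9 FPKM for RBE. EPAS1, the hypoxia factor HIF2 alpha, was the gene higher in LM3, with 26.8 and 23.1 FPKM there and 12.4 and 10.8 FPKM for RBE.

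Of 17 genes of haem synthesis and breakdown, 16 passed the filter. Of these, 5 were called higher in LM3 and 3 higher in RBE (32.3% and 26.4% of all genes tested). For HMOX1, which releases iron from haem, LM3 gave 71.3 and 87.7 FPKM and RBE gave 20.6 and 22.1 FPKM (limma log2 difference 1.84 ± 0.12 SE, adjusted p = 0.00181). BLVRB, a reductase of haem breakdown products, was also higher in LM3, with 130 and 150 FPKM there and 73.5 and 50.6 FPKM for RBE. UROS, an enzyme of haem synthesis, had 20.9 and 28.0 FPKM for LM3 and 50.3 and 52.3 FPKM for RBE. TMEM14C, a mitochondrial membrane protein of the same pathway, had 40.9 and 45.8 FPKM for LM3 and 83.7 and 84.4 FPKM for RBE.

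All 22 genes of mitochondrial iron and iron-sulphur cluster assembly passed the filter. Of these, 3 were called higher in LM3 and 8 higher in RBE (32.3% and 26.4% of all genes tested). FDX1, a ferredoxin, was among those higher in LM3, with 7.97 and 7.58 FPKM there and 2.91 and 2.55 FPKM for RBE. FDXR, the ferredoxin reductase, lay the other way, with 3.41 and 4.17 FPKM for LM3 and 16.0 and 16.9 FPKM for RBE. GLRX5, a glutaredoxin that transfers clusters, had 21.7 and 20.8 FPKM for LM3 and 45.1 and 46.7 FPKM for RBE.

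Of 9 genes of cytosolic cluster assembly, 2 were called higher in LM3 and 5 higher in RBE (32.3% and 26.4% of all genes tested). NUBP2, a scaffold of that pathway, had 15.4 and 15.1 FPKM for LM3 and 53.5 and 54.8 FPKM for RBE. MMS19, which hands clusters to target proteins, had 13.5 and 11.3 FPKM for LM3 and 36.4 and 37.0 FPKM for RBE. NDOR1, which supplies electrons, was higher in LM3, with 13.7 and 14.4 FPKM there and 6.84 and 6.77 FPKM for RBE. CIAO2A, listed under the older symbol FAM96A, had 51.7 and 52.3 FPKM for LM3 and 38.0 and 35.3 FPKM for RBE. The median log2 difference was -0.29 in the mitochondrial list and -0.62 in the cytosolic list, and 0.092 over all genes tested.

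Ferroptosis is a death by iron-dependent lipid oxidation. Among 10 of its regulators, 5 were called higher in LM3 and 1 higher in RBE (32.3% and 26.4% of all genes tested). For SLC7A11, the cystine importer, LM3 gave 21.7 and 21.0 FPKM and RBE gave 0.861 and 0.918 FPKM (limma log2 difference 3.56 ± 0.12 SE, adjusted p = 0.000778). GPX4, which reduces lipid peroxides, had 383 and 470 FPKM for LM3 and 262 and 257 FPKM for RBE. SAT1, an enzyme of polyamine breakdown, had 176 and 182 FPKM for LM3 and 66.5 and 66.4 FPKM for RBE. DHODH, a mitochondrial enzyme of pyrimidine synthesis, was the gene higher in RBE, with 4.36 and 4.33 FPKM there and 2.85 and 2.56 FPKM for LM3.

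**Figure D3:**
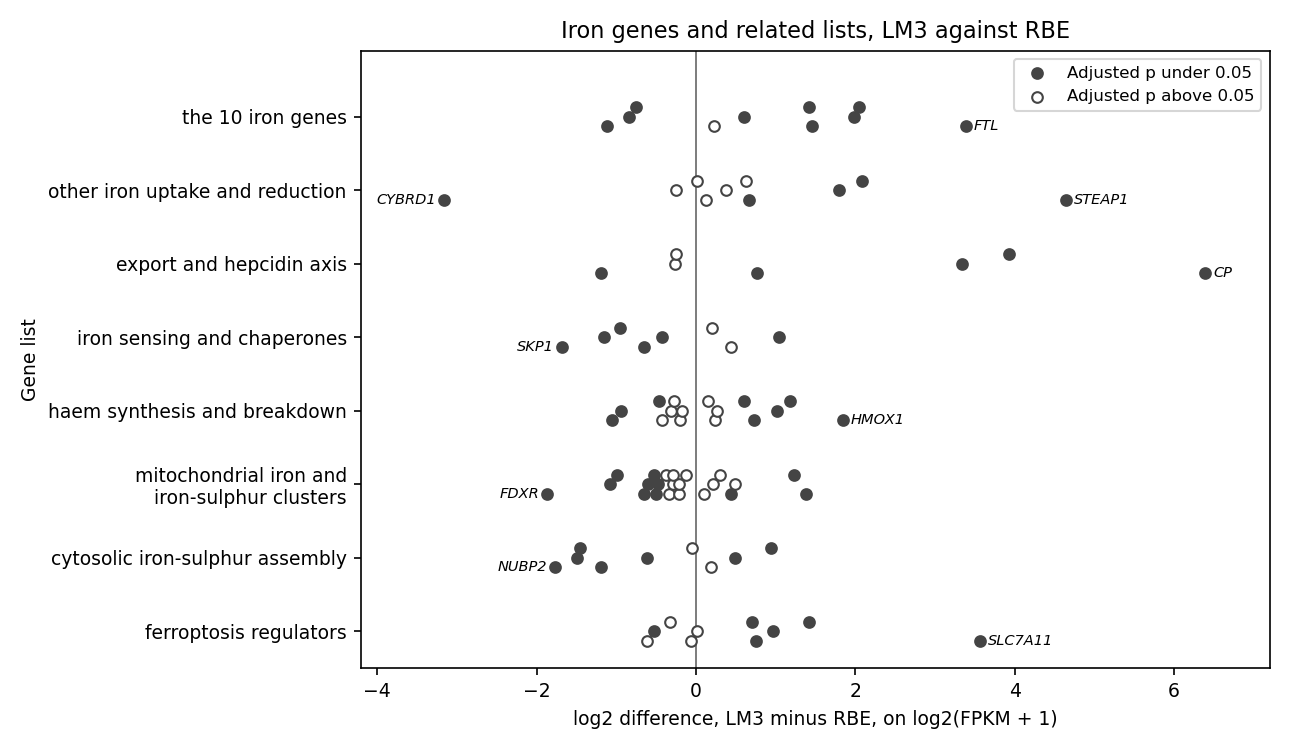
Log2 difference between LM3 and RBE on log2(FPKM + 1) for the 10 iron genes and the tested genes of 7 related lists, 1 point per gene, filled where the adjusted p was under 0.05, with end genes more than 1.5 from 0 named. CP lies at 6.39, both cluster assembly lists have medians left of 0, and the position of CYBRD1 depends on the pseudocount since it was listed at 0 in LM3.

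Between si-FENDRR and si-NC over both lines, the comparison the series was built on, no iron gene passed. By limma 0 of the 15930 genes tested were called (0% of all genes), and 657 (4.12%) had an unadjusted p under 0.05, of which 0 were among the 10. FTH1 came nearest, with si-FENDRR minus si-NC at -0.36 ± 0.13 on the log2 scale (SE, n = 2 lines, unadjusted p = 0.0513 and adjusted p = 0.959 by limma). The si-FENDRR library was the lower one in both lines, with 2733 against 3976 FPKM for LM3 (log2 difference -0.54) and 2046 against 2308 FPKM for RBE (-0.17). Within LM3, 9.48% of all genes tested differed at least as much as FTH1, a threshold set after its value was seen. Its partner FTL was at -0.0018 ± 0.086 (SE, adjusted p = 0.999 by limma). The other 8 genes lay between -0.23 and 0.094 over both lines, with standard errors of 0.11 to 0.14.

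The 25 pseudogene copies of FTH1, summed without FTH1 itself, had the opposite order in LM3. They came to 156 FPKM for si-FENDRR and 124 FPKM for si-NC, and to 59.8 and 68.2 FPKM in the RBE pair. With the copies added by length, FTH1 kept its order in LM3, with 2776 FPKM for si-FENDRR and 4009 FPKM for si-NC. Most of the copies that reached 1 FPKM had the higher value with si-FENDRR in LM3. Among them were FTH1P2, FTH1P10 (23.5 and 17.3 FPKM) and FTH1P20 (8.54 and 3.23 FPKM). The lower value was seen for FTH1P8, the next in abundance after FTH1P2 (29.8 and 32.4 FPKM), and for FTH1P23 and FTH1P16. FTLP3, the most abundant copy of FTL, had 31.4 and 12.9 FPKM for LM3 and 1.47 and 1.24 FPKM for RBE, and was named after its values were seen. Their part in the FTH1 values was not tested.

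Within each line there is 1 library per transfection and no test. None of the 10 genes differed 2-fold in FPKM + 1 in LM3, where 2.13% of all genes tested did, and 0 of 10 did so in RBE, where 1.75% did. SLC11A2 and NCOA4 had higher values with si-FENDRR in both lines, with log2 differences of 0.14 and 0.053 in LM3 and of 0.016 and 0.0076 in RBE. FTH1 and ACO1 had lower values in both, ACO1 at -0.19 in LM3 and -0.27 in RBE. TFRC, at -0.27, and IREB2, at 0.23, were among the larger differences in RBE and had the opposite sign in LM3, at 0.062 and -0.070. In RBE, 25.1% of all genes tested differed at least as much as TFRC. Opposite signs were seen in 6 of the 10 genes and in 47.1% of all genes tested. The median size of the difference was 0.066 in LM3 and 0.16 in RBE for the 10 genes, and 0.15 and 0.14 over all genes tested. Of the 7 related lists, 0 genes differed 2-fold in either line.

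**Figure D4:**
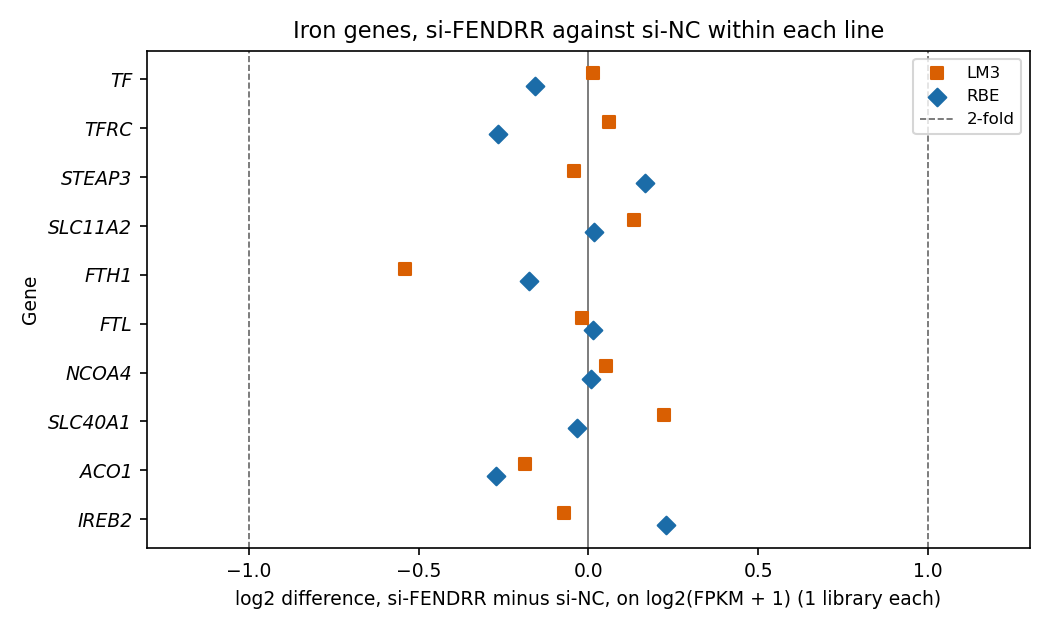
Log2 difference of the 10 iron genes between si-FENDRR and si-NC on log2(FPKM + 1), within LM3 (squares) and within RBE (diamonds), each point from 1 library against 1. All points lie inside the dashed 2-fold lines, and FTH1 in LM3 lies farthest from 0 at -0.54.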

How the data were processed

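FPKM per gene were made and deposited by the authors, one table of 4 libraries whose single-library files hold the same values. The submitters' processing notes name FastQC for read checks and HISAT2 with hg38 for alignment, without versions. Which program and annotation gave the FPKM is not stated in the sources. Depth is unknown: in single-exon genes only 9.58% to 14.1% of low values, multiplied by length, lay within 0.02 of whole multiples of 1 step, so whole reads could not be had and there are no counting intervals.

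Of the gene identifiers, 57836 were matched to GENCODE release 29 on GRCh38, used for exons, overlaps, transcripts and 4 newer symbols. Limma version 3.58.1 in R version 4.3.3 was fitted with a trended prior variance to log2(FPKM + 1), which understates changes of low genes, for the 15930 genes that reached 1 FPKM in some library. Line and transfection were the model terms, which left 1 residual degree of freedom, and p-values were adjusted by Benjamini-Hochberg over all genes tested. The labels give no replicate numbers, and the line pairs the transfections. In data simulated over 15930 genes, 200 were changed and the others were not. Of these 200, 0 were called when changed 2-fold between lines and 177 when changed 4-fold. For the transfection term these counts were 0 and 188. Beside them, at 4-fold, 18 unchanged genes were called for line and 22 for transfection. The measured line comparison called 9348 genes, and its adjustment was less strict, with FTH1 called at 1.52-fold. The simulated counts between lines do not carry over to it.

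The members and lists were chosen with earlier results of these data known. All 10 members are named, with the 2 highest and 2 lowest called genes of each related list, and the pseudogenes as counts with the largest; a few list genes are not reported here. Alternatives covered the filter, pseudocount, scaling, model terms, prior variance, pseudogenes and single libraries left out.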

Additional observations from a re-analysis of the deposited data

Results flagged for a closer look

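In 6 of the 10 iron genes the log2 difference between si-FENDRR and si-NC had opposite signs in LM3 and RBE, as in 47.1% of all genes tested. The contrast between the lines was not tested, since each line has 1 library per transfection. The log2 difference in LM3 less that in RBE was 0.33 for TFRC, 0.26 for SLC40A1 and 0.17 for TF, which were higher with si-FENDRR in LM3 and lower in RBE. It was -0.30 for IREB2, -0.21 for STEAP3 and -0.032 for FTL, which had the reverse signs. Some of these signs rest on very small differences, such as -0.018 in LM3 and 0.014 in RBE for FTL, and 0.014 in LM3 for TF.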

How the results depend on the processing

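Between the lines, FTL, TF, TFRC, SLC40A1, SLC11A2, NCOA4 and STEAP3 kept their direction and passed under every alternative run, with log2 differences of 3.29 to 3.48 for FTL and 1.84 to 2.18 for TFRC. ACO1 passed under none. By limma, FTH1 was lost with no filter (0.60, adjusted p = 0.139) and with no replicate block, the transfection term left out (0.60, adjusted p = 0.0610). With 1 library left out, in fits on line alone where 1 line is a single library assumed to vary like the other, it ran from 0.33 to 0.87, and IREB2 from -0.86 to -0.63. The members called were then 7 to 8, and the genes called among all those tested 5615 to 7009, against 9348 with all 4 libraries and both terms and 9643 with all 4 and line alone. Between the transfections, 0 genes were called in every alternative, also with no replicate block, the cell line term left out. NCOA4 reversed from 0.031 to -0.0038 with median-of-ratios scaling. Within single lines, TFRC was at 0.062 in LM3, SLC40A1 at -0.035 in RBE and IREB2 at -0.070 in LM3, each opposite to its value over both lines. The cause of these changes was not tested. Depth is unknown, and a 2-fold difference between transfections was not called in the simulated data.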
